A study of Mus musculus with 4 samples.

Results

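The genes described are 38 genes of DNA double-strand break and interstrand crosslink repair, all of which were found among the 23532 genes of the series table. They were listed by name, with earlier results of these data known: 11 genes of homologous recombination, 11 of the Fanconi anaemia pathway, 6 of end resection and joint molecule processing, 5 of end joining, 4 of break signalling and pathway choice, and the mismatch repair gene Msh6. The RNA came from Hepa1-6, a mouse hepatoma cell line. The Chd1KD group (n = 2 libraries) carried a lentiviral shRNA against Chd1, a chromatin remodeler of transcribed genes, and the Control group (n = 2) a lentiviral scrambled shRNA, although the labels also call the Control cells wild type. Both groups were transduced and kept under 4 μg/ml puromycin for 3 weeks, so both are selected cultures of 1 line. Whether the 2 libraries of a group are separate transductions is not stated, and p-values therefore cover no more than the spread between libraries, possibly a technical one.

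Cells rejoin a broken chromosome mainly by homologous recombination, which copies a sister chromatid and is used in S and G2 phase, or by end joining, which ligates the ends directly. Recombination begins when the ends are trimmed to single strands, onto which BRCA2 and its partners load the recombinase. The Fanconi proteins unhook crosslinks between the strands by tagging the FANCD2-FANCI pair with ubiquitin, and hand the resulting break to recombination. Loss of BRCA or Fanconi genes makes cells sensitive to crosslinking drugs.

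Chd1 measured 10.4 and 11.3 RPKM in Chd1KD, against 21.4 and 22.5 RPKM in Control (RPKM scales reads to transcript length and to the mapped reads of the library). The ratio was 0.494, and Chd1 fell over all 10209 tested genes (limma, adjusted p = 0.0125), a call lost without the filter on low values (adjusted p = 0.25). Of 8 hepatocyte markers 6 averaged at least 1 RPKM, among them Krt8, Krt18 and Hnf4a, while Ttr was listed at 0 in all 4 libraries and Apoa1 stayed under 1 RPKM. Hnf4a, Apob, Krt18 and Krt8 had ratios of 0.783, 0.722, 0.839 and 0.953 and Afp of 1.63, each with groups apart, and Alb had 42.2 and 53.0 RPKM in Chd1KD, against 18.6 and 55.6 RPKM in Control. None of these 6 passed (limma, adjusted p of 0.0773 to 0.57), and their part in the repair gene values was not tested. No matched macrophage, endothelial or stellate cell marker averaged 1 RPKM, and their summed levels were at most 0.389, 0.0917 and 0.487 RPKM in Chd1KD, against 0.580, 0.0348 and 0.256 RPKM in Control.

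In Chd1KD most of the repair genes stood slightly below Control, but none passed the test over all genes. Of the 38 genes, 36 averaged at least 1 RPKM and were tested, and 31 of these had a negative log2 fold change on log2(RPKM + 1), where 56.5% of all tested genes did. The adjusted threshold of 0.05 was passed by 0 of the 36 (limma), and by 0.46% of all tested genes. On the lower side 7 of the 36 had an unadjusted p under 0.05, beside 11.3% of all tested genes, and on the higher side 0 did, beside 7.24%. These 7 were Rad54l, Rad54b, Fance, Rad50, Xrcc4, Fancg and Fancd2, and without Control replicate 2 the count was 13. Both Chd1KD libraries lay below both Control libraries for 22 of the 36 genes (30.5% of all tested genes) and above them for 2, Fanci and Fancm (21.3% of all tested genes). The median log2 fold change was -0.12 over the 36 genes and -0.02 over all tested genes.

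The differences were small. The largest among the repair genes was -0.36, while the smallest among the 47 genes that passed over all genes was 0.39 in size. That count of 47 was 140 without Control replicate 1, 236 without Control replicate 2 and 122 without Chd1KD replicate 2, and in each case included none of the 36 tested genes. The median difference of the 36 genes was -0.16, -0.11, -0.13 and -0.09 for the 4 pairs of a Chd1KD with a Control library. For the same pairs the median over all tested genes was -0.033, -0.005, -0.037 and -0.009. Between libraries of 1 group the median of the 36 genes was 0.05 in Chd1KD and -0.03 in Control (replicate 2 minus replicate 1 in each). Between 26 and 33 of the 36 genes were lower in the Chd1KD library of each cross pair. Within groups, 9 of the 36 were lower in replicate 2 than in replicate 1 of Chd1KD, and 22 in Control. Replicates of 1 group could thus also lean to 1 side. Summed over the 38 genes, the level was 389.7 and 404.4 RPKM in Chd1KD, against 446.3 and 427.8 RPKM in Control.

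**Figure D1:**
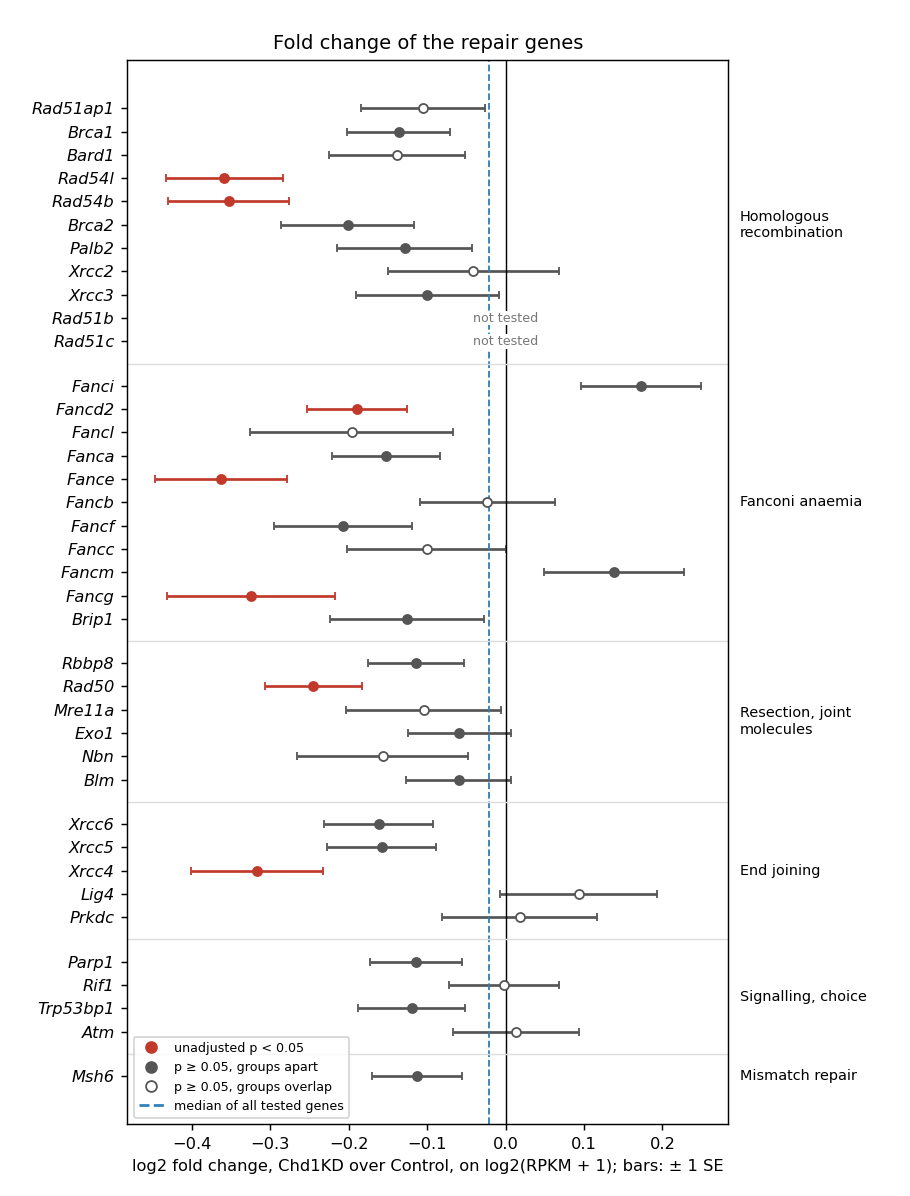
Log2 fold change of each tested repair gene, Chd1KD over Control on the log2(RPKM + 1) scale, with bars of 1 standard error from limma (2 libraries a group). Filled red points are the 7 genes at an unadjusted p under 0.05, open points are genes whose groups overlap, and the dashed line is the median of all tested genes at -0.02. All 9 tested recombination genes lie left of 0, and Fanci and Fancm lie farthest to the right.

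Most of the listed proliferation genes stood lower in the same libraries. Of 20 such genes, among them those of the replicative helicase, 18 had negative fold changes (56.5% of all tested genes) and the median was -0.17. At an unadjusted p under 0.05 were 11 lower and 2 higher genes (11.3% and 7.24% of all tested genes), and none passed over all genes (limma). The 2 higher genes were Ccne1 and Ccne2, with ratios of 1.17 and 1.18 and groups apart, while Mki67 had a ratio of 0.999. In bulk RNA, fewer cells in S phase and less RNA per cell cannot be told apart, and the part of proliferation in the repair gene values was not tested.

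Promoter sequences, credited to RefSeq on build GRCm38.p6, were at hand for 29 of the 38 genes, each covering 250 bases before to 50 bases after a transcription start. Letters of the E2F site, bound by the factors that switch on S phase genes, were searched as TTTCCCGC or TTTGGCGC on both strands. They stood in 6 of the 29 genes (20.7%), in 3.82% of the 8202 tested genes with an entry and in 1.80% of all 27025 genes with an entry. The 6 stretches are shown 5′ to 3′ on the gene's strand with the E2F letters in capitals, because they are what the rule of choice did not use and some of the genes share. They lie at chr4:43010334-43010363, minus strand (Fancg); chr5:150522443-150522472, plus strand (Brca2); chr1:71103162-71103191, minus strand (Bard1). The others lie at chr11:87404940-87404969, minus strand (Rad51c); chr15:82016313-82016342, plus strand (Xrcc6); chr17:87975055-87975084, plus strand (Msh6).
Fancg: ttcttttcagTTTCCCGCggaaccgtctct
Brca2: ttaggccacaGCGGGAAAcagacacacaca
Bard1: cgccgctcagTTTCCCGCtcaggaagtttg
Rad51c: ccccgcgaggGCGGGAAAagcaaggggtcg
Xrcc6: gggggtggaaGCGGGAAAtgcgagtgggcg
Msh6: tcctcccgacTTTCCCGCcagcggcggccg
The matches of Fancg, Xrcc6 and Rad51c began 52, 46 and 5 bases before the start, those of Brca2 and Bard1 168 and 209 bases before it, and that of Msh6 15 bases after it. The start is that of the promoter entry. The annotated genes Fancg, Brca2 and Xrcc6 begin farther upstream than their matches. For 28 of the 29 genes the entry runs into a transcript of the gene in the sense direction. Of the 7 lowest-p genes, Rad54l, Fance, Xrcc4 and Fancg had a promoter entry and only Fancg held the letters. CCAAT, the box bound by NF-Y, stood on either strand in 19 of the 29 genes (65.5%), and in 43.4% of tested genes. GGGCGG, a GC box, stood in 21 (72.4%, and 71.6% of tested genes), and can share bases with an E2F match. TTTGAA, the core of the cell cycle homology region of mitotic genes, stood in 2, Bard1 and Rad51b (6.90%, and 14.1% of tested genes). A match is a string of letters in the window and no record of binding.

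The promoters of the genes with the smallest p in recombination and in the Fanconi pathway are shown whole, with CCAAT or its reverse complement in capitals. They lie at chr4:116123641-116123940, minus strand for the first of 2 starts of Rad54l, and at chr17:28313280-28313579, plus strand for Fance. Each holds 1 such box and no E2F letters.
Rad54l: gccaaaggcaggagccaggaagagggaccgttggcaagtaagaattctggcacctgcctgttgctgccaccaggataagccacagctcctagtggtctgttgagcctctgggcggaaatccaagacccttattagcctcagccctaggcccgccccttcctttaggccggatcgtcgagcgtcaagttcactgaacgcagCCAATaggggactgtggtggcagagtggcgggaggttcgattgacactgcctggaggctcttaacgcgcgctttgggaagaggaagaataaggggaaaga
Fance: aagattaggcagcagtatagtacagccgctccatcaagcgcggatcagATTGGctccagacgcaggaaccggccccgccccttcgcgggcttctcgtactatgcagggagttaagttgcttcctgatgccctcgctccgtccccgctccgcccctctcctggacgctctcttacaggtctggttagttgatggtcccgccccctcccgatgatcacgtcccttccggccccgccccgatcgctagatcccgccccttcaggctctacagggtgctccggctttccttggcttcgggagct

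The fold changes of all 9 tested genes of homologous recombination were negative (56.5% of all tested genes), with a median of -0.14 and a range from -0.36 to -0.04. The groups were apart for 6 of them, beside 30.5% of all tested genes on the lower side. Xrcc2, the one nearest to 0, turned positive without Control replicate 1 (0.08) and without Chd1KD replicate 2 (0.0052).

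The 2 recombination genes farthest below Control were the Swi2/Snf2 motor proteins that help the recombinase invade its template. Rad54l had 6.46 and 6.89 RPKM in Chd1KD, against 9.14 and 8.55 RPKM in Control. The ratio was 0.755 and the log2 fold change -0.36 with an SE of 0.07 (limma, adjusted p = 0.102). Its paralog Rad54b had 6.58 and 6.77 RPKM in Chd1KD, against 8.37 and 9.25 RPKM in Control. Its ratio was 0.757 and its log2 fold change -0.35 with an SE of 0.08 (limma, adjusted p = 0.104). For both genes the Chd1KD libraries lay close together, below both Control libraries, by more than the gap inside either group.

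Both genes share exonic bases with a neighbour, and no source states whether strand was used in quantification, so reads of the partners cannot be told apart there. Rad54l overlaps Lrrc41 on the opposite strand by up to 721 bases in 1 exon pair (GENCODE M21), and Lrrc41 averaged 30.4 RPKM in Chd1KD and 28.6 RPKM in Control. Rad54b shares up to 2068 bases with Fsbp on the same strand, and Fsbp averaged 1.34 RPKM in Chd1KD and 1.70 RPKM in Control. Such overlap was common, as 20 of the 38 genes have an exon that overlaps another gene. Of these, 14 overlap a protein-coding gene, among them Xrcc4, Xrcc6, Fanca, Fancf and Fancl.

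The BRCA proteins and their partners differed less. Brca1, a ubiquitin ligase that favours resection, had 11.1 and 11.4 RPKM in Chd1KD, against 12.1 and 12.8 RPKM in Control (limma, adjusted p = 0.32). Its obligate partner Bard1 had 6.93 and 7.81 RPKM in Chd1KD, against 7.78 and 8.63 RPKM in Control, where the groups overlapped by a narrow margin. Brca2, which loads the recombinase, had 5.29 and 5.85 RPKM in Chd1KD, against 6.87 and 6.24 RPKM in Control (ratio 0.850, limma, adjusted p = 0.27). Palb2, the bridge between BRCA1 and BRCA2, had 3.60 and 3.34 RPKM in Chd1KD, against 4.04 and 3.73 RPKM in Control (ratio 0.892). The groups did not overlap for Brca1, Brca2 and Palb2, and none of the 4 differences passed.

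The recombinase paralogs, which stabilise the recombinase filament, were the least abundant of the group. Rad51c had 0.478 and 0.731 RPKM in Chd1KD, against 0.774 and 0.839 RPKM in Control, and Rad51b averaged 0.985 ± 0.068 RPKM in Chd1KD and 0.977 ± 0.076 RPKM in Control (SD, n = 2 each). Both fell under the filter and were not tested. Xrcc2 and Xrcc3 averaged 2.91 and 2.80 RPKM in Chd1KD, against 3.03 and 3.07 RPKM in Control. Rad51ap1, an accessory factor of strand invasion, was the most abundant of the group at 14.3 and 15.7 RPKM in Chd1KD, against 17.1 and 15.4 RPKM in Control, and its groups overlapped.

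**Figure D2:**
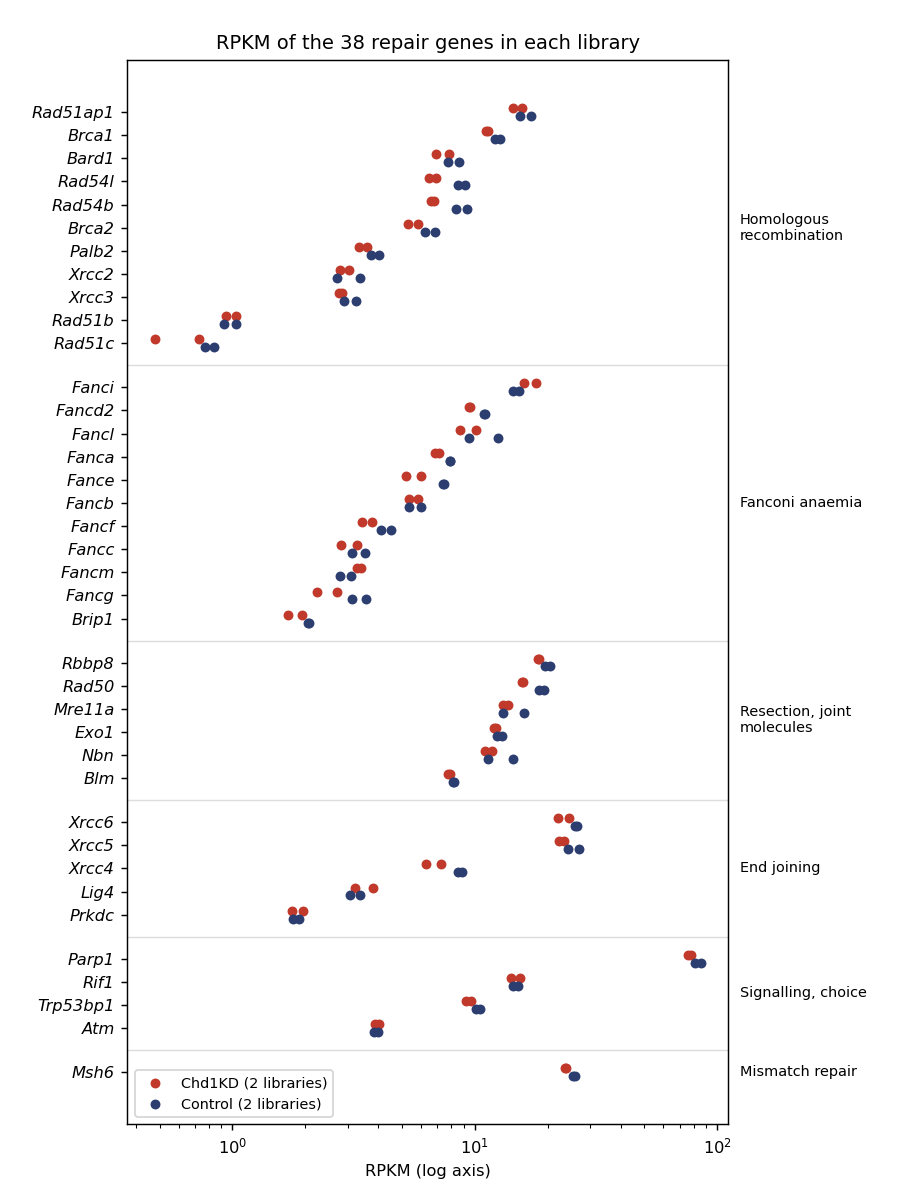
RPKM of the 38 repair genes in each of the 4 libraries on a log axis, Chd1KD in red above Control in blue in each row, ordered by mean level within a group. Levels span from Rad51c, under 1 RPKM, to Parp1 at 75.5 to 85.6 RPKM, and the 2 colours lie close together in nearly every row.

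In the Fanconi anaemia pathway 9 of 11 fold changes were negative (median -0.15), and the groups were apart on the lower side for 6 and on the higher side for 2, beside 30.5% and 21.3% of all tested genes. The core complex, which attaches ubiquitin, held the largest differences. Fance, the subunit that contacts FANCD2, had 5.19 and 5.99 RPKM in Chd1KD, against 7.50 and 7.42 RPKM in Control. The ratio was 0.749 and the log2 fold change -0.36 with an SE of 0.08 (limma, adjusted p = 0.111). Fancg, a scaffold subunit, had 2.69 and 2.22 RPKM in Chd1KD, against 3.54 and 3.11 RPKM in Control, a ratio of 0.739 (limma, adjusted p = 0.189). Both Chd1KD libraries were below both Control libraries for each gene.

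Other core complex genes, and Brip1 of the same pathway, were closer to Control. Fancf, an adaptor, had 3.43 and 3.75 RPKM in Chd1KD, against 4.50 and 4.11 RPKM in Control (ratio 0.835), and Fanca had 6.87 and 7.12 RPKM in Chd1KD, against 7.87 and 7.90 RPKM in Control (ratio 0.887). Neither passed, and in both the groups were apart. Fancl, the ubiquitin ligase subunit, had 10.1 and 8.68 RPKM in Chd1KD, against 12.5 and 9.47 RPKM in Control, so 1 Control library lay between those of Chd1KD. Fancc and Fancb had ratios of 0.913 and 0.981 with overlapping groups, and Fancb turned positive under quantile normalization (0.0056). Brip1, a helicase that binds BRCA1, had 1.70 and 1.93 RPKM in Chd1KD, against 2.08 and 2.06 RPKM in Control.

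The 2 proteins that receive the ubiquitin form a pair, yet their mRNAs stood on opposite sides of Control. Fancd2 had 9.46 and 9.52 RPKM in Chd1KD, against 10.9 and 11.0 RPKM in Control (log2 fold change -0.19, SE 0.06, limma, adjusted p = 0.195). Fanci, the most abundant gene of the group, had 15.9 and 17.9 RPKM in Chd1KD, against 14.4 and 15.3 RPKM in Control (log2 fold change 0.17, SE 0.08, limma, adjusted p = 0.289), with a log2 fold change of 0.25 without Chd1KD replicate 1 and 0.09 without Chd1KD replicate 2. The ratio of Fancd2 to Fanci within a library was 0.594 and 0.533 in Chd1KD, against 0.754 and 0.723 in Control, a log2 difference of -0.39. The groups were apart in this ratio, which does not depend on library scaling. That follows from Fancd2 lying below and Fanci above Control without overlap, so the ratio adds no separate support. An exact two-sided permutation test could then give only p = 0.333, the smallest that 2 against 2 libraries allow. Fancm, the DNA translocase that anchors the core complex, was the only other gene above Control without overlap, with 3.40 and 3.26 RPKM in Chd1KD, against 2.78 and 3.10 RPKM in Control. Fancd2 and Fanci overlap Fancd2os and Polg on the opposite strand by 256 and 398 bases.

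**Figure D3:**
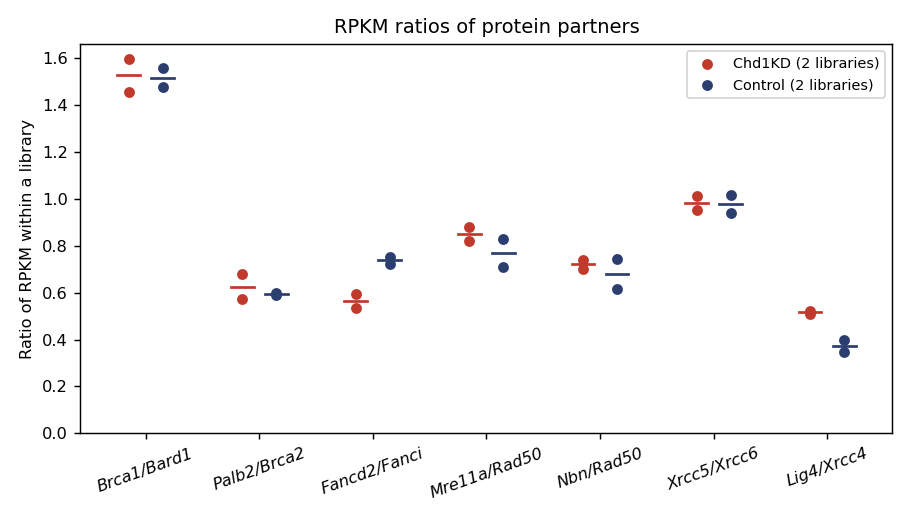
Ratio of RPKM between genes whose proteins work as partners, computed within each library, with Chd1KD left of Control and a line at each group's mean of 2 libraries. The groups are apart for Fancd2/Fanci (lower in Chd1KD) and Lig4/Xrcc4 (higher in Chd1KD), and they overlap for the other 5 ratios.

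All 6 genes of end resection and joint molecule processing had a negative fold change, at a median of -0.11 and over a range from -0.25 to -0.06. Of all tested genes 56.5% were negative. The median of the 6 genes was -0.04 without Control replicate 1 and -0.17 without Control replicate 2. Rad50, the coiled-coil ATPase of the complex that senses and trims breaks, had 15.7 and 15.8 RPKM in Chd1KD, against 19.3 and 18.4 RPKM in Control. The ratio was 0.835 and the log2 fold change -0.25 with an SE of 0.06 (limma, adjusted p = 0.13). The 2 other subunits of that complex had 1 high Control library each. The nuclease Mre11a had 13.8 and 13.0 RPKM in Chd1KD, against 16.0 and 13.1 RPKM in Control, and Nbn had 11.0 and 11.7 RPKM in Chd1KD, against 14.4 and 11.4 RPKM in Control. Without Control replicate 1, Mre11a and Nbn turned positive (0.03 and 0.0022).

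The ratio of Mre11a to Rad50 was 0.878 and 0.823 in Chd1KD, against 0.829 and 0.710 in Control, and overlapped, as did that of Nbn to Rad50. Rbbp8, the partner that starts resection, was the most abundant of the group at 18.3 and 18.4 RPKM in Chd1KD, against 19.5 and 20.4 RPKM in Control. The long-range nuclease Exo1 had a ratio of 0.957 and the helicase Blm, which dissolves joint molecules, 0.954. For Rbbp8, Exo1 and Blm the groups were apart, and the differences did not pass (limma, adjusted p of 0.361 to 0.668). With Rad50, 4 of the 6 genes were apart on the lower side, beside 30.5% of all tested genes.

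End joining was mixed, with 3 of 5 genes (60%) below Control and 2 above it, where 56.5% of all tested genes were below. The groups were apart on the lower side for 3, beside 30.5% of all tested genes. The median was -0.16, and -0.09 both without Control replicate 1 and without Chd1KD replicate 1. The Ku subunits that cap the ends stood at nearly equal levels. Xrcc6 had 22.0 and 24.5 RPKM in Chd1KD, against 26.4 and 25.9 RPKM in Control, and Xrcc5 had 22.3 and 23.3 RPKM in Chd1KD, against 26.8 and 24.3 RPKM in Control. Both had ratios of 0.891 (limma, adjusted p = 0.279 and 0.288), and their ratio to each other averaged 0.982 in Chd1KD and 0.979 in Control. Prkdc, the kinase that Ku recruits, was far less abundant per length at 1.86 ± 0.14 RPKM in Chd1KD and 1.83 ± 0.068 RPKM in Control (SD, n = 2 each), and its sign changed without Control replicate 1 and without Chd1KD replicate 2.

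The fold changes of the ligase and its scaffold had opposite signs, and neither passed. Xrcc4, which holds and stabilises the ligase, had 6.30 and 7.25 RPKM in Chd1KD, against 8.51 and 8.82 RPKM in Control. The ratio was 0.782 and the log2 fold change -0.32 with an SE of 0.08 (limma, adjusted p = 0.138). Lig4, the ligase itself, had 3.21 and 3.79 RPKM in Chd1KD, against 3.37 and 3.06 RPKM in Control, and overlapped. The ratio of Lig4 to Xrcc4 was 0.510 and 0.523 in Chd1KD, against 0.396 and 0.347 in Control, a log2 difference of 0.48. The exact permutation test gave p = 0.333, again the smallest that 2 against 2 libraries allow, so it cannot tell the ratios apart. Of the 7 partner ratios computed, only this one and Fancd2 to Fanci had groups apart. No such count was made for ratios of other gene pairs, so this count does not single out these pairs. Among individual tested genes, a different measure, 30.5% were apart on the lower side and 21.3% on the higher.

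Genes of break signalling and pathway choice had a median of -0.06. None of the 4 had an unadjusted p under 0.05 (limma), where 11.3% of all tested genes were lower and 7.24% higher, so that count says little. That median was -0.02 without Chd1KD replicate 1, -0.10 without Chd1KD replicate 2, -0.03 without Control replicate 2 and -0.11 with a mean of at least 5 RPKM. Parp1, which marks breaks with ADP-ribose, was the most abundant of all 38 genes at 75.5 and 78.1 RPKM in Chd1KD, against 85.6 and 80.9 RPKM in Control (ratio 0.923, limma, adjusted p = 0.345). Trp53bp1, which shields ends from resection, had 9.17 and 9.69 RPKM in Chd1KD, against 10.1 and 10.5 RPKM in Control. It shares up to 1873 exonic bases with Tubgcp4 on the opposite strand, and Tubgcp4 averaged 8.46 RPKM in Chd1KD and 11.7 RPKM in Control. Rif1, its effector, and the kinase Atm had ratios of 0.999 and 1.01, and the sign of each turned in some fits, that of Rif1 also under both other scalings. Msh6, which recognises mismatches, had 23.6 and 23.8 RPKM in Chd1KD, against 26.0 and 25.4 RPKM in Control (ratio 0.922, limma, adjusted p = 0.338), with the groups apart.

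Of the 38 genes 10 had more than 1 RefSeq transcript, and in some the transcripts differed in direction. The main Brca2 transcript had 4.12 and 3.93 RPKM in Chd1KD, against 6.43 and 5.36 RPKM in Control. The second Brca2 transcript had 1.16 and 1.92 RPKM in Chd1KD, against 0.437 and 0.875 RPKM in Control. The groups were apart for both, in opposite directions, so the summed Brca2 value differed less than its main transcript. In a fit on each gene's most abundant transcript, the log2 fold change of Brca2 was -0.45 (limma, adjusted p = 0.14).

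Fancg, described here at transcript level after its values were seen, had a main transcript at 2.13 and 1.94 RPKM in Chd1KD, against 3.54 and 3.11 RPKM in Control. Its second transcript had 0.556 and 0.284 RPKM in Chd1KD and was listed at 0 in both Control libraries. The log2 fold change of the main transcript was -0.51 (limma, adjusted p = 0.132). The main Fance transcript had 3.06 and 4.48 RPKM in Chd1KD, against 5.72 and 5.70 RPKM in Control, also at -0.51 (limma, adjusted p = 0.185). For Rad54l the groups were apart in the main transcript, with 2.42 and 2.92 RPKM in Chd1KD, against 4.49 and 3.77 RPKM in Control, and overlapped in the 2 others. Rad54b stood below Control without overlap in both its transcripts. How reads were divided among transcripts of a gene is an estimate by the authors' software, and no error of that division is given.

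**Figure D4:**
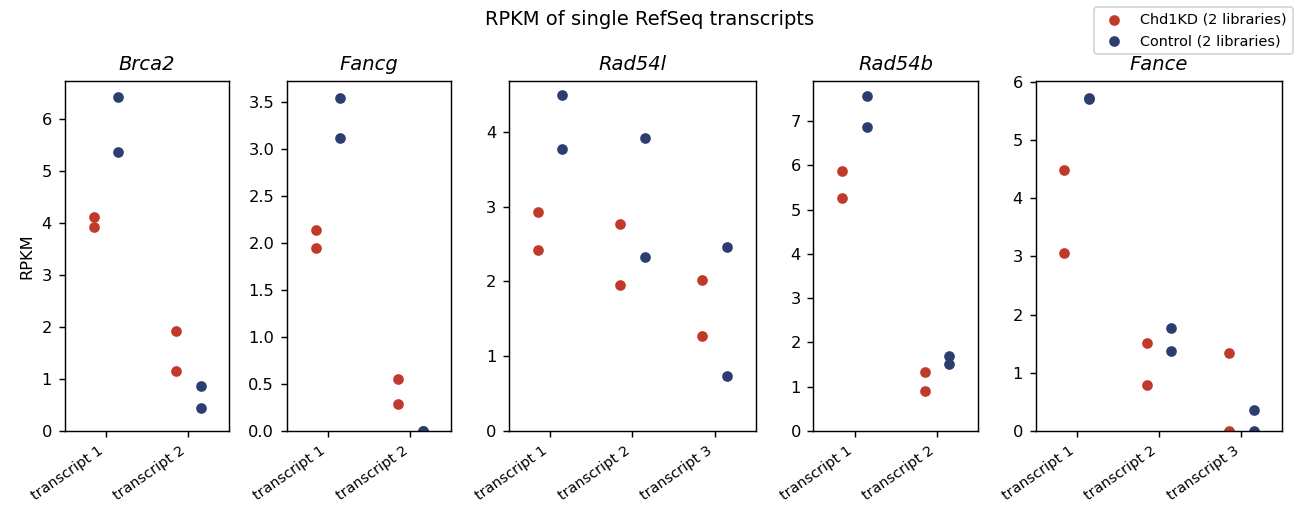
RPKM of single RefSeq transcripts, numbered by mean level, of 5 repair genes, with 2 Chd1KD libraries in red left of 2 Control libraries in blue. In Brca2 and Fancg transcript 1 is lower and transcript 2 higher in Chd1KD, while the second transcripts of Rad54l and Fance overlap. A transcript listed at 0 in all libraries is not drawn.

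A further 76 genes of the same pathways were taken by function, with earlier results of these data known, and 75 of them were tested. Of these, 57 (76%) had negative fold changes, beside 56.5% of all tested genes, and the median was -0.10. At an unadjusted p under 0.05, 15 (20%) were lower and 1 higher, beside 11.3% and 7.24% of all tested genes. Over all genes 0 passed, beside 0.46% of all tested genes (limma). The 15 became 23 without Control replicate 2 and 7 without Chd1KD replicate 2. Both Chd1KD libraries were below both Control libraries for 37 and above them for 6, beside 30.5% and 21.3% of all tested genes. Eme1, the partner of the joint molecule nuclease MUS81, had 7.84 and 8.29 RPKM in Chd1KD, against 11.4 and 10.6 RPKM in Control (ratio 0.735, limma, adjusted p = 0.0802). Faap100, a core Fanconi subunit, had 3.54 and 3.89 RPKM in Chd1KD, against 5.37 and 5.14 RPKM in Control (ratio 0.706, limma, adjusted p = 0.0965). Faap24, which pairs with FANCM, had a ratio of 0.796.

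Rpa3 and Rpa2, subunits of the single-strand binding complex, had ratios of 0.807 and 0.854. The break mark histone H2ax and its reader Mdc1 had ratios of 0.851 and 0.857, and the nuclease scaffold Slx4 0.864. The end-joining factors Polm and Nhej1 had ratios of 0.793 and 0.840. Groups apart were a condition of the rule that named these genes, so their separation is no separate result. Smc6, of the SMC5/6 complex, was the 1 higher gene at an unadjusted p under 0.05 (log2 fold change 0.17), chosen for mention after its value was seen.

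**Figure D5:**
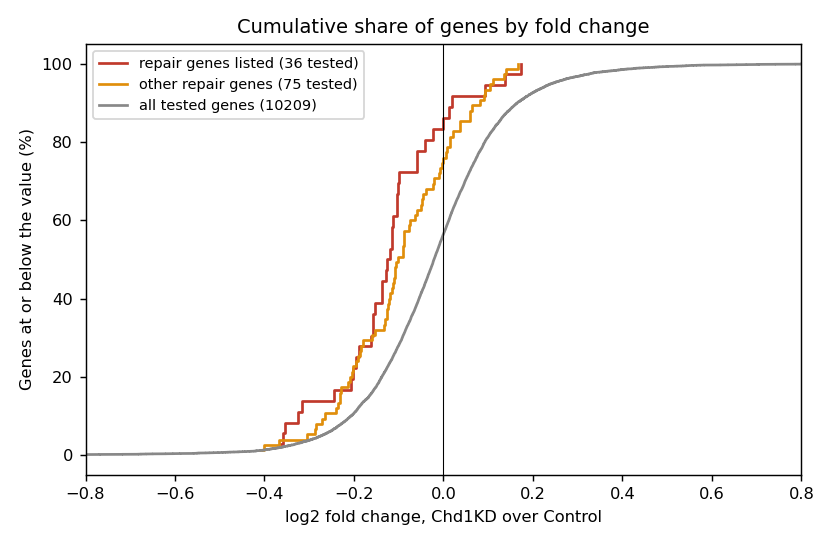
Cumulative percentage of genes at or below each log2 fold change, Chd1KD over Control, for the 36 tested repair genes, the 75 further repair genes and all 10209 tested genes. Both repair curves lie left of the curve of all genes over most of the range, with medians of -0.12, -0.10 and -0.02, and the 3 curves lie close together below -0.40; the horizontal axis stops at -0.8 and 0.8.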

How the data were processed

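Poly(A) RNA of 2 Chd1KD and 2 Control libraries was sequenced, from 10 μg of total RNA each. The authors deposited RPKM values for 30582 RefSeq transcripts, per the file headers. TopHat 1.4.1 and Cufflinks 1.3.0 are listed in the submitters' processing notes, with the mm10 build. Neither the annotation release nor the strand setting is given in the sources used here.

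Gene symbols came from NCBI's GRCm38.p6 table (30003 rows) and GENCODE M21 (180 rows), and 399 rows kept their accession. RPKM was summed over the transcripts of a gene. Depth is unknown: among 376 low transcripts the commonest ratio to Control replicate 1 was 0.99 in each other library, carried by only 31 to 39 values.

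Genes averaging at least 1 RPKM entered limma 3.58.1 (R 4.3.3) as log2(RPKM + 1), fitted with a trend of variance on mean, Benjamini-Hochberg adjustment over 10209 genes and a threshold of 0.05. This scale understates changes of low genes. Ratios are of group mean RPKM. The test was checked on simulated data and there missed changes as small as those of most repair genes. That none of them passed is therefore no sign of equal levels. The members and lists were chosen with earlier results of these data known. In each group up to 3 genes with the smallest p and groups apart and the most abundant gene were named by rule. The rule also named up to 4 genes for transcripts and up to 2 further genes a class, these again with groups apart. Other names were chosen after their values were seen. A few results are not reported here. Alternatives covered pseudocount, filter, scaling, variance model, replicate block, transcript, threshold and each library left out.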

Additional observations from a re-analysis of the deposited data

How the results depend on the processing

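None of the 36 tested repair genes passed a threshold of 0.05 over all genes under any of the 14 other fits (limma), and in the fit as reported none passed 0.1. With 1 library left out, the lone library of its group is assumed to vary like the other group. The lowest adjusted p over these fits was 0.0516, for Rad54b with the replicate number as a block. The sign held under all of these fits for 29 of the 36 genes, 26 negative and 3 positive. The median over the genes was -0.14 with a pseudocount of 0.1, -0.095 with a pseudocount of 5 and -0.103 under quantile normalization, and -0.157 to -0.094 when 1 library was left out. Lower genes at an unadjusted p under 0.05 numbered 5 to 13 when 1 library was left out (13 without Control replicate 2), and higher ones 0 to 1. Further repair genes numbered 7 to 23 lower at that level and 0 to 1 passed over all genes with 1 library left out.

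The signs of 7 genes turned in at least 1 fit. With 1 library left out, their log2 fold changes ranged from -0.159 to 0.0773 for Xrcc2, from -0.0917 to 0.045 for Fancb, from -0.242 to 0.0335 for Mre11a, from -0.316 to 0.00215 for Nbn, from -0.0306 to 0.0667 for Prkdc, from -0.0114 to 0.0382 for Atm and from -0.0573 to 0.0534 for Rif1. Quantile normalization gave 0.0056 for Fancb and 0.0106 for Rif1, and median-centred libraries 0.0083 for Rif1. The cause was not tested.

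Over all tested genes the 47 calls became 0 without a filter (limma, Chd1 then at -0.96 with an adjusted p of 0.25), 71 with a mean of at least 5 RPKM, 6 without a variance trend, 92 with a robust trend, 12 with the most abundant transcript, 205 at an adjusted p under 0.1, and 49 to 236 with 1 library left out. Replicate numbers carried no stated pairing. Deviations of same-numbered libraries correlated at 0.22 across genes, and with the replicate number as a block 325 genes, 0 repair genes and 3 of the further repair genes passed, while 10 repair genes were lower and 1 higher at an unadjusted p under 0.05. The depth is unknown, so no counting error stands beside any value.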
